A study of Mus musculus with 7 samples.

Results

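Cytosolic ribosomal protein genes were described in RNA sequencing and in chromatin immunoprecipitation sequencing (ChIP-seq) of EKLF, the erythroid transcription factor encoded by Klf1, in erythroblasts and in the progenitors that precede them. Members were the listed genes whose mouse symbol begins with Rpl or Rps and a digit, together with Rpsa, Rplp0, Rplp1 and Rplp2, and without the S6 kinases. The rule took 50 genes of 5194 with a level of at least 1 in at least 1 stage. All 50 members found passed that filter. They were 25 large-subunit, 22 small-subunit and 3 stalk genes, among them the joined item Rpl34/Rpl34-ps1, whose symbols share their exon positions. By symbol, the rule also took Rps19bp1, a nucleolar protein that binds RPS19 and is not itself part of the ribosome, the 1-exon item Rpl32l and the paralogs Rps27l, Rpl22l1, Rpl7l1 and Rpl36al. Of the 91 protein-coding symbols that fit the rule in the RefSeq annotation of GRCm38.p6, 51 had a listed exon and 40 had none, including Rpl5, Rpl11, Rps6, Rpsa and Rps27a. Those 40 were not analysed here.

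The cytosolic ribosome joins a small subunit, which reads the mRNA, with a large subunit, which forms the peptide bonds. A flexible stalk of P proteins on the large subunit recruits elongation factors. Most ribosomal protein mRNAs begin with a 5' terminal oligopyrimidine (TOP) tract, through which their translation is switched together. In people, loss of 1 copy of any of several of these genes causes Diamond-Blackfan anemia, a failure of red cell precursors, so the family is of particular interest in the erythroid lineage.

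The erythroblasts were Ter119+CD71+ cells and the progenitors a pool of Ter119-CD71- and Ter119-CD71+ cells, both sorted from fetal livers of E13.5 mouse embryos. Maturing red cells display Ter119, and CD71 is the receptor for transferrin. All samples, controls included, carried Klf1 with a hemagglutinin tag, against which the immunoprecipitating antibody was directed. The 7 samples were 2 ChIP libraries, 2 inputs without antibody and 3 RNA libraries, of which 2 were from erythroblasts, and each population came from at least 3 independent sorts. The deposited values held 1 RNA column and 1 peak list per stage, so no difference between stages has a replicate check and none carries a p-value.

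The RNA values are a coverage signal per coding exon, with no value below 0.8 in either column, and a gene's level is the sum over its listed exons. That sum grows with exon length and number, so a level is compared between stages for 1 gene, and a high sum does not mean a highly expressed gene. The sort was checked on Tfrc, the CD71 gene, with 148 in erythroblasts and 21.3 in progenitors, on Gata1, the erythroid master regulator, with 2845 and 42.1, on the joined alpha-globin genes, with 4043 and 159, and on the joined adult beta-globins (Hbb-b2, Hbb-bt), with 1686 and 9.59. Klf1 itself had 145 in erythroblasts and 73.9 in progenitors, and Myc, a growth regulator of early cells, had 55.5 and 306. Of the 13 erythroblast markers 7 symbols were listed and of the 6 early progenitor markers 2. No hepatocyte, macrophage or granulocyte marker was listed, and of 3 megakaryocyte markers only Gp1ba was, with 31.6 in erythroblasts and 9.35 in progenitors. Its part in the results was not tested.

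The ribosomal protein genes as a family were close to level between the stages. Of the 50 members 8 were at least 2-fold higher in erythroblasts (16.0%), against a background of 15.3% of all genes. None was at least 2-fold lower, against a background of 13.2%. The median log2 difference, computed as erythroblasts over progenitors after adding 1 to each level, was 0.07 for the members and 0.03 for all genes. Differences ran from -0.93 to 1.62 in the members and from -5.33 to 7.32 in all genes. Such a range widens with the number of genes, and the interquartile range was 0.89 in the members and 1.21 in all genes. A difference of at least 0.5 in either direction was found in 42.0% of members and 57.6% of all genes. Of the members, 29 had a value above 0 and 21 below. Without the 4 paralogs, Rpl32l and Rps19bp1, 7 of 44 members were at least 2-fold higher, none was lower, and the median was 0.09. In sorted bulk cells, fewer cells of a type and less RNA per cell cannot be told apart.

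**Figure D1:**
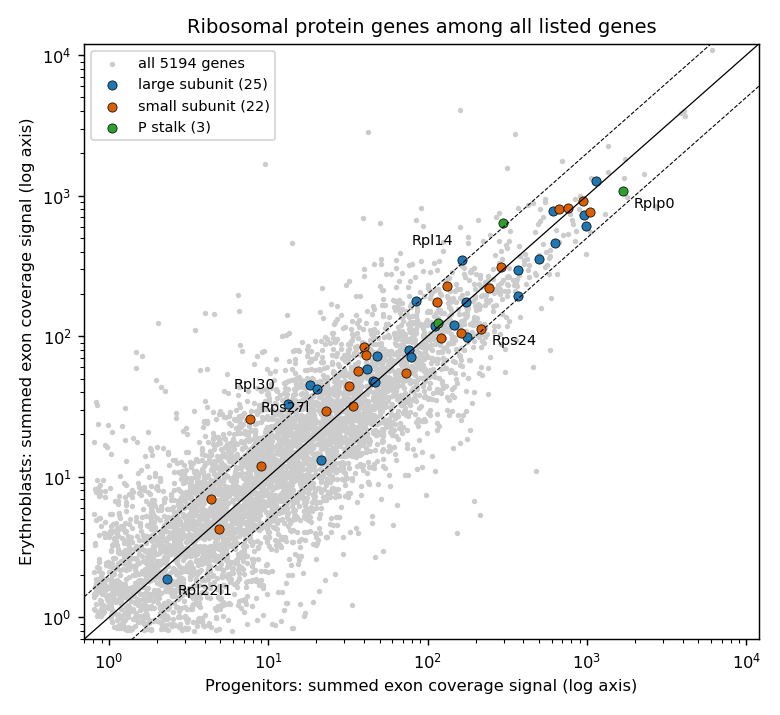
Summed exon coverage signal of each gene in erythroblasts (vertical, log axis) against progenitors (horizontal, log axis), with all 5194 genes in grey and the 50 members in colour by subunit. The solid line marks equal levels and the dashed lines a 2-fold ratio. The members lie along the solid line, with 8 on or above the upper dashed line and none below the lower.

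Large-subunit proteins lie around the peptidyl transferase centre and the exit tunnel. Of 25 large-subunit members 5 were at least 2-fold higher in erythroblasts (20%, against 15.3% of all genes). None was lower, against 13.2% of all genes, and the median log2 difference was 0.01. Rpl30 had a level of 33.1 in erythroblasts and 13.2 in progenitors, a log2 difference of 1.26 on 1 listed exon. Rpl34/Rpl34-ps1 had 44.7 in erythroblasts and 18.3 in progenitors, a log2 difference of 1.24. That difference was uneven, as the exon nearer the 3' end had 20.3 in erythroblasts and 2.64 in progenitors and the other exon had 24.5 and 15.7. Rpl14 had 350.0 in erythroblasts and 164.6 in progenitors, a log2 difference of 1.08 on 1 exon. Rpl22, which T cell development needs in mice although bulk translation does not, had 178 in erythroblasts and 84.5 in progenitors. Its log2 difference was 1.07, and each of 3 exons was higher, with log2 ratios of 1.91, 1.10 and 0.19 from the 5' to the 3' exon. Rpl37 had 41.97 in erythroblasts and 20.3 in progenitors, a log2 difference of 1.02 on 1 exon, and stood just over the 2-fold rule. With a pseudocount of 5 its value was 0.90, and it was also under the rule with median-ratio scaling (0.99), quantile normalization (0.99) and globin items removed (0.95).

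Further large-subunit genes with several listed exons were under the rule, with exons on both sides of 0. Rpl4, which lines the exit tunnel, had 1279 in erythroblasts and 1141 in progenitors, with 4 of its 8 listed exons higher in erythroblasts and 4 lower. Its log2 difference was 0.16 with an SD of 0.35 over exons, which are not replicates. Rpl8, at the peptidyl transferase centre, had 773 in erythroblasts and 609 in progenitors, a log2 difference of 0.34, with 4 of 5 exons higher. Rpl13a, which silences inflammatory transcripts in human cells after leaving the ribosome, had 724 in erythroblasts and 953 in progenitors. Its exons disagreed, since that at the 3' end had a log2 ratio of 0.69 and the other 4 had -0.14 to -0.85. Rpl3, which helps to build the peptidyl transferase centre, had 118 in erythroblasts and 112 in progenitors on 2 exons that went opposite ways.

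At the low end stood Rpl32l, Rpl29, Rpl32 and Rpl7l1, each under the 2-fold rule. Rpl32l had 193 in erythroblasts and 369 in progenitors, a log2 difference of -0.93 on 1 exon. Rpl32 itself had 606 in erythroblasts and 995 in progenitors, a log2 difference of -0.71 with 1 of 3 exons higher in erythroblasts. Rpl29 had 98.6 in erythroblasts and 176 in progenitors, a log2 difference of -0.83. These differences are read with caution, because the same annotation holds 309 pseudogenes whose symbols fit the rule, and no source used here says how reads shared between near-identical copies were assigned. Reads of Rpl32 and Rpl32l, like those of other copies, may therefore be divided between items or lost.

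Small-subunit proteins lie around the decoding site and the mRNA channel. Of 22 small-subunit members 2 were at least 2-fold higher in erythroblasts (9.09%, against 15.3% of all genes). None was lower, against 13.2% of all genes, and the median log2 difference was 0.18. Rps27l, a paralog of Rps27 that p53 induces in human cells, had the largest difference of all members, with 25.7 in erythroblasts and 7.66 in progenitors. The log2 difference was 1.62, and both listed exons were higher in erythroblasts, with 13.4 and 12.3 there and 2.52 and 5.14 in progenitors. Rps7, one of the anemia genes, had 83.6 in erythroblasts and 39.9 in progenitors, a log2 difference of 1.05 on 1 exon, which a pseudocount of 5 (0.98) and the removal of globin items (0.99) took under the rule. Rps9 had 228 in erythroblasts and 132 in progenitors, a log2 difference of 0.79 under the rule. Its 3 exons had log2 ratios of 1.63, 1.21 and -0.11 from 5' to 3', so their median of 1.21 would pass it.

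Several small-subunit genes with 3 or more exons were level or slightly lower. Rps3, at the mRNA entry site, had 816 in erythroblasts and 761 in progenitors, with 3 of 5 exons higher. Rps14, whose loss underlies the anemia of the human 5q- syndrome, had 312 in erythroblasts and 290.4 in progenitors, a log2 difference of 0.10 with 2 of 4 exons higher. Rps15 had 765 in erythroblasts and 1041 in progenitors, and its 3 exons agreed closely, with log2 ratios of -0.41, -0.45 and -0.45. At the low end of the small subunit stood Rps24, Rps3a1, Rps15 and Rps4x, none past the rule. Rps3a1 had 106 in erythroblasts and 163 in progenitors, and Rps4x, the X-linked copy, had 54.8 and 72.7. The lowest value was that of Rps24, with 113 in erythroblasts and 216 in progenitors, a log2 difference of -0.93 on 1 exon, under the rule.

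The stalk genes did not move together. Rplp1 was at least 2-fold higher, with 637 in erythroblasts and 299 in progenitors, a log2 difference of 1.09. Its 2 exons differed, with log2 ratios of 1.29 at the 5' and 0.30 at the 3' exon, and their median of 0.80 was under the rule. Rplp0, the base of the stalk, had 1071 in erythroblasts and 1675 in progenitors, a log2 difference of -0.64. Its 4 exons had log2 ratios of 0.04, -0.48, -0.87 and -1.35 from 5' to 3', so the size of this difference depends on the exon. Rplp2, the partner of Rplp1 in the stalk dimers, had 124 in erythroblasts and 117 in progenitors.

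Genes mutated in Diamond-Blackfan anemia were a mixed group here. Of 21 on the list 10 were listed. Of these 1, Rps7, was at least 2-fold higher in erythroblasts (10%, against 15.3% of all genes). None was lower, against 13.2% of all genes, and the median log2 difference was 0.19. Rps19, the gene most often mutated in that disease, had 74.0 in erythroblasts and 41.1 in progenitors. Its log2 difference of 0.83 was under the rule, with both listed exons higher in erythroblasts. Rps26 had 918 in erythroblasts and 942 in progenitors, and Rpl35a had 47.3 and 47.0. Rps10 had 6.96 in erythroblasts and 4.37 in progenitors, Rps15a had 11.97 and 9.01, and Rpl18 had 58.3 and 41.4. Rpl26 had 458 in erythroblasts and 635 in progenitors, Rps20 had 32.0 and 33.9, and Rps24 was described above. Levels of this group therefore lay on both sides of 0 with no value below -0.93.

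Paralogs and the other items taken by symbol were low or level, except Rps27l. Rpl22l1, the paralog of Rpl22, had 1.89 in erythroblasts and 2.32 in progenitors on 1 exon, near the lowest value the table lists. Rpl7l1, a nucleolar relative of Rpl7, had 13.2 in erythroblasts and 21.3 in progenitors, with 1 of 5 exons higher and a wide SD of 1.38 over exons. Rpl36al had 120.1 in erythroblasts and 147 in progenitors, and Rps19bp1 had 4.28 and 4.88. Among the 27 members with at least 2 listed exons, 7 had every exon higher in erythroblasts, 5 had every exon lower and 15 were mixed. The median SD of exon log2 ratios was 0.46 in these members and 0.61 in all genes with at least 2 exons. Many of the differences above are within that spread.

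**Figure D2:**
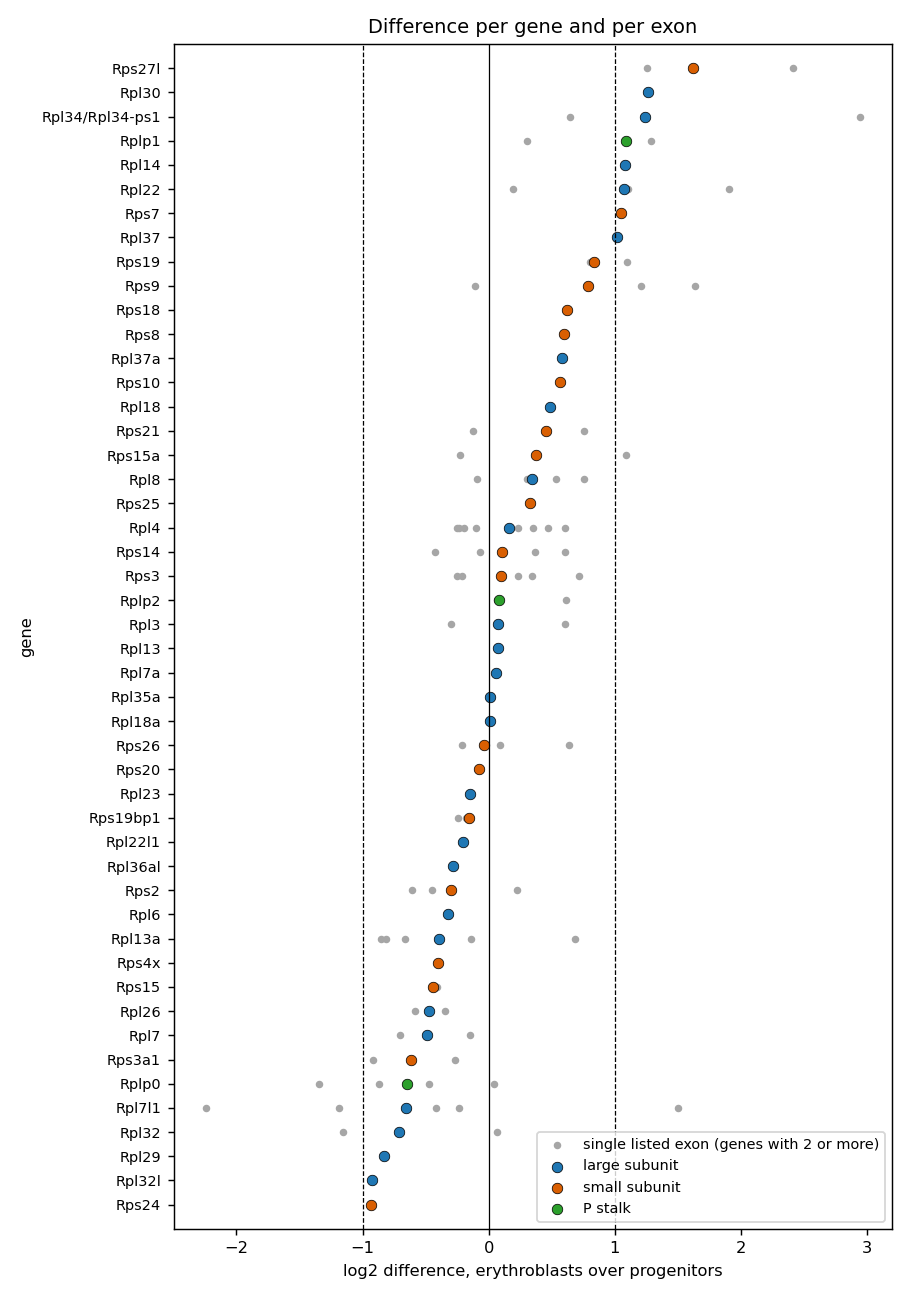
Log2 difference of 48 of the 50 members, erythroblasts over progenitors, ordered from highest to lowest and coloured by subunit. Grey points are the single exons of genes with at least 2 listed exons, and dashed lines mark a 2-fold difference. The 8 members past the right dashed line run from Rpl37 (1.02) to Rps27l (1.62), and exons of 1 gene often spread as widely as the genes do.

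Other gene groups of the translation apparatus were set beside the ribosomal proteins. Of 17 listed genes with TOP mRNAs that encode no ribosomal protein, none was at least 2-fold lower, against 13.2% of all genes. The median of the 17 was 0.05, and 2 were at least 2-fold higher (11.8%, against 15.3% of all genes). These were the histone chaperone gene Nap1l1 (29.2 in erythroblasts and 3.43 in progenitors) and Hnrnpa1 (12.2 and 2.38), an RNA-binding protein. The elongation factor genes Eef2 (3869 in erythroblasts and 3912 in progenitors) and Eef1a1 (3700 and 4105) were level. Of 28 listed initiation and elongation genes 5 were higher (17.9%, against 15.3% of all genes) and 1 lower (3.57%, against 13.2%). The median of the 28 was 0.05, while the scaffold gene Eif4g1 (625 in erythroblasts and 822 in progenitors) was under the rule. Among those past the rule was Eif2ak1, the heme-regulated kinase of red cell precursors, with 39.6 in erythroblasts and 5.61 in progenitors. Eef2k, the kinase that inhibits elongation, was the lower gene, with 11.3 in erythroblasts and 86.0 in progenitors. Eif5b, which joins the subunits, was higher, with 319 and 76.0, as was Eif5, with 49.1 and 16.0. Not every higher gene of this list is named.

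Ribosome assembly genes differed in their counts from the ribosomal proteins themselves. Among 29 listed biogenesis genes, 10 met the 2-fold rule downward in erythroblasts and 1 upward (34.5% and 3.45%, against 13.2% and 15.3% of all genes), with a median of -0.66. Polr1b, a subunit of RNA polymerase I, had 0.84 in erythroblasts and 14.3 in progenitors, and Rrs1, an assembly factor of the large subunit, had 9.12 and 42.3. Nop2, an rRNA methyltransferase, had 27.3 in erythroblasts and 166 in progenitors, and Utp4, a factor of the small subunit, had 5.21 and 27.8. The nucleolin gene Ncl, with the largest summed coverage on the list, had 523 in erythroblasts and 712 in progenitors and was under the rule. The member that was higher was Rrn3, an RNA polymerase I initiation factor, with 26.8 in erythroblasts and 9.08 in progenitors. Of 72 listed mitochondrial ribosomal protein genes 12 were lower (16.7%) and 4 higher (5.56%), and the median was -0.15. Mrps18b had 10.7 in erythroblasts and 41.4 in progenitors, Mrpl12 had 36.0 and 100.2, and Mrpl53 had 8.21 and 1.60. Mrpl24, with the largest summed coverage on its list in erythroblasts, had 63.6 there and 51.2 in progenitors. With 1 column per stage the differences between these lists were not tested.

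**Figure D3:**
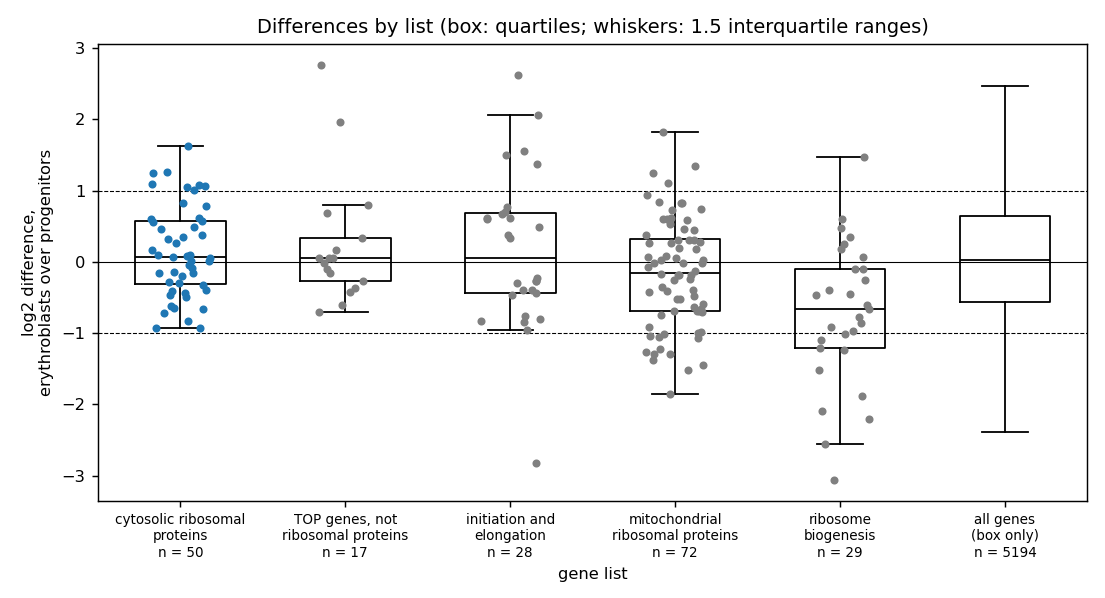
Log2 differences, erythroblasts over progenitors, for the cytosolic ribosomal protein genes (blue) and 4 related lists (grey), with a box for all 5194 genes. Boxes give the quartiles and the median, and dashed lines mark a 2-fold difference. The ribosomal protein genes have a median of 0.07 and no point under the lower dashed line, and the ribosome biogenesis genes have a median of -0.66.

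EKLF peaks were common at ribosomal protein genes in both stages. A gene was taken to have a peak when one lay inside the stretch its listed exon starts span or within 5 kb of it. In erythroblasts 43 of 50 members (86.0%) had a peak, against a background of 46.5% of all genes. In progenitors 26 members (52.0%) had one, against a background of 30.9%. Peaks of both lists were at 24 members (background 27.1%), an erythroblast peak alone at 19 (19.4%), a progenitor peak alone at 2 (3.79%) and neither at 5 (49.7%). The genes with a progenitor peak alone were Rpl30 and Rps4x, and those with neither were Rps7, Rps9, Rpl37a, Rpl7l1 and Rpl32l. At 22 of the 24 members with both, the peaks of the 2 lists overlapped by at least 1 bp.

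These shares were higher although the members' spans are short, with a median of 533 bp, against 4393 bp for all genes. They also moved with coverage and with peak rank. Of the 352 genes with a summed coverage, not scaled to length, at or above the members' median, 71.3% had an erythroblast peak and 47.4% a progenitor peak, with a median span of 12061.5 bp. The part of coverage in the members' share was not tested. Of the 28 initiation and elongation genes 85.7% had an erythroblast peak, of the 17 other TOP genes 70.6%, of the 29 biogenesis genes 65.5% and of the 72 mitochondrial ribosomal protein genes 56.9%. Next, 3679 peaks were kept in each list by rank, which is 50% of the 7358 progenitor peaks but a smaller part of the 19353 erythroblast peaks. Shares are therefore read against all genes and not between stages. With these peaks, 6 members (12%) had an erythroblast peak and 12 (24.0%) a progenitor peak, against 14.3% and 18.5% of all genes. With that number of peaks, the members' share in erythroblasts was below that of all genes. With a window of 50 kb, 90% of members and 88.1% of all genes had an erythroblast peak.

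**Figure D4:**
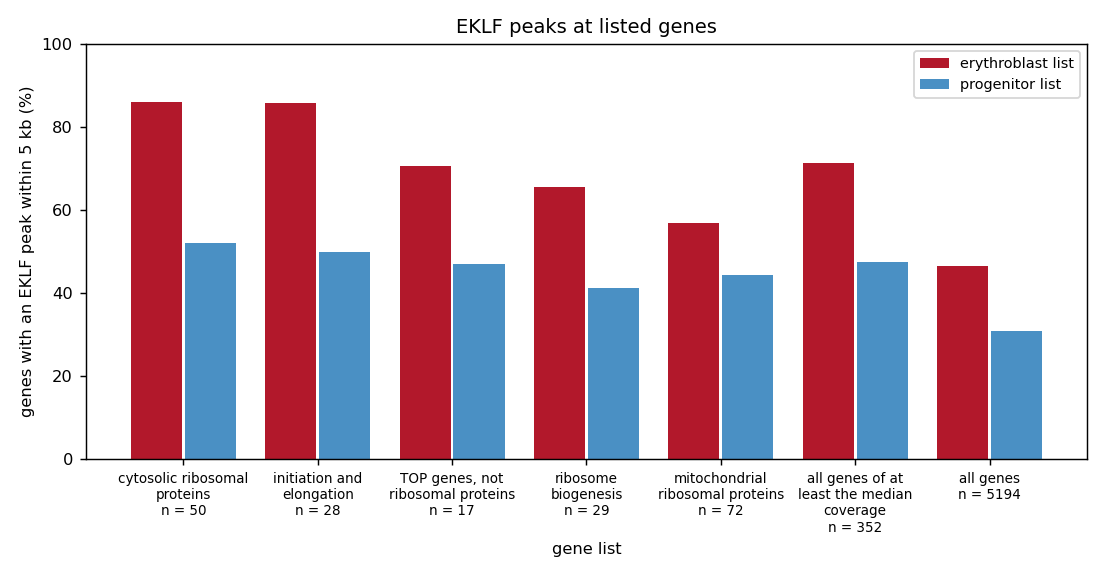
Share of genes with an EKLF peak within 5 kb, in percent, for the erythroblast list (red) and the progenitor list (blue), by gene list. The ribosomal protein genes stand at 86.0% and 52.0%, close to the initiation and elongation genes (85.7% and 50%) and above all genes (46.5% and 30.9%). The sixth pair of bars takes all genes with at least the members' median coverage.

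The peaks lay upstream of most members. In erythroblasts the centre of the best-ranked peak lay upstream of the 5'-most listed exon in 37 of 43 members, at a median of -1169.5 bp, with quartiles of -1862 and -371.5 bp. The median over all genes with a peak was upstream as well, at -454 bp. Their upstream peaks were not counted, so the members' upstream counts in either stage are not read as a trait of the members. The centre lay within 2 kb of that exon in 74.4% of the 43 members and in 55.7% of all genes with a peak. In progenitors 20 of 26 were upstream, at a median of -1103 bp, against -468.5 bp for all genes with a peak. Within 2 kb lay 65.4%, against 57.6% of all genes with a peak. Peaks were sought within 5 kb of a span with a median of 533 bp in members and 4393 bp in all genes. A peak at a short span cannot lie as far downstream of the 5'-most listed exon. The shares within 2 kb are therefore not like for like, and no closeness particular to the members is read from them. The first coding exon is often unlisted, so these distances are not distances to a start of transcription. A further listed gene lay within 5 kb of the same peak at 15 of the 43 members, and unlisted neighbours were not counted.

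By enrichment the members' peaks were close to those of all genes with a peak, and by rank they were lower in several measures. The authors' fold enrichment of the best-ranked erythroblast peak had a median of 11.8 over members, against 11.98 over all genes with a peak and 9.31 over the whole list. In progenitors these medians were 7.515, 7.70 and 7.025. Of the 43 members 1 had its best erythroblast peak in the highest-ranked 10% of that list (2.33%), against 18.5% of all genes with a peak, and 69.8% had it in the better-ranked 50%, against 63.1%. In progenitors 11.5% of the 26 members were in the highest-ranked 10%, against 15.4% of all genes with a peak, and 46.2% in the better-ranked 50%, against 59.8%. The erythroblast member in the highest-ranked 10% was Rps19bp1, with a peak at 80084852 to 80087235 of chromosome 15. All peak positions are in mm9. Its fold enrichment was 37.85 and its rank 164. It covered the starts of the 2 listed exons of Atf4, a stress-response transcription factor gene (80086729 and 80087064). From the 5'-most listed exon of Rps19bp1 it lay 8.37 kb downstream, so it counts for Rps19bp1 only through the 5 kb window. A second peak, over the 5'-most listed exon of Rps19bp1 from 80093747 to 80095124, had 14.05.

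**Figure D5:**
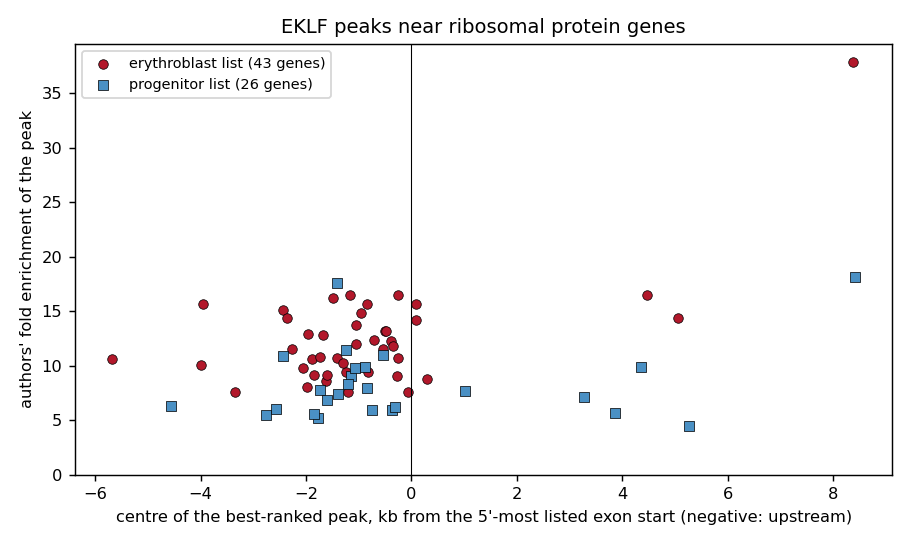
Position and strength of the best-ranked EKLF peak at each member, with the distance in kb from the 5'-most listed exon start to the peak centre (negative is upstream) and the authors' fold enrichment. Red circles are the 43 genes of the erythroblast list and blue squares the 26 of the progenitor list. Most points lie between -3 and 0 kb. The pair near 8 kb with the highest enrichments was counted for Rps19bp1 and covers the listed exon starts of Atf4.

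After Rps19bp1, the highest-ranked erythroblast peak was at Rpl7a, a large-subunit gene in the crowded Surf locus. It lay on chromosome 2 from 26765466 to 26767629 with an enrichment of 12.3 and a rank of 2451, and Med22, Surf1 and Surf2 were within 5 kb of it as well. The next was at Rpl36al, on chromosome 12 from 70284209 to 70286739, with an enrichment of 12.8, and was shared with Mgat2 and Dnaaf2. Then came Rpl23, on chromosome 11 from 97642858 to 97644218 with 15.7, and Rps21, on chromosome 2 from 179990883 to 179993098 with 11.8. Rpl23 and Rps21 had no progenitor peak within 5 kb.

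In progenitors the highest-ranked peaks after that of Rps19bp1 were those of Rps3a1 and Rpl7. At Rps3a1 the progenitor peak (chromosome 3, 85945631 to 85947501) reached a 17.6-fold enrichment and a rank of 343, and an erythroblast peak from 85945132 to 85947529 had 16.5 and a rank of 4285. At Rpl7, on chromosome 1, the progenitor peak from 16094312 to 16097066 had an enrichment of 10.9 and a rank of 477, and the erythroblast peak from 16093975 to 16096651 had 9.84 and a rank of 3419. Rpl3 had its best progenitor peak, on chromosome 15 from 79905768 to 79908180 with an enrichment of 9.90, 4.35 kb downstream of its 5'-most listed exon, while its erythroblast peak lay upstream from 79912880 to 79914487. At Rps20 the progenitor peak, on chromosome 4 from 3762087 to 3763495 and upstream of the listed exon, reached 9.05 with a rank of 1542. Of the genes with a progenitor peak alone, Rpl30 (chromosome 15, 34372477 to 34373991) had an enrichment of 7.93 and Rps4x (chromosome X, 99383792 to 99385180) one of 5.5. Ranks and enrichments come from lists of different lengths and are read within 1 list.

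Of the 10 listed anemia genes 9 had an erythroblast peak (90%, against 86% of members and 46.5% of all genes) and 4 a progenitor peak (40%, against 52% and 30.9%). At Rps19 an erythroblast peak on chromosome 7 from 25668732 to 25670561 with an enrichment of 13.2 covered the 5'-most listed exon, and a progenitor peak from 25668727 to 25670851 with 5.96 overlapped it. At Rps26 an erythroblast peak alone, on chromosome 10 from 128062610 to 128064127, had 16.5, and at Rps24 another, on chromosome 14 from 25309550 to 25310798, had 14.9. Rps7 had neither, the nearest erythroblast peak being 114 kb and the nearest progenitor peak 1229 kb from its 1 listed exon.

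RNA differences were next set beside the peak classes. The median log2 difference was 0.06 in the 24 members with both peaks and 0.09 in the 19 with an erythroblast peak alone. It was 0.43 in the 2 with a progenitor peak alone and 0.58 in the 5 with neither, which ran from -0.93 (Rpl32l) to 1.05 (Rps7). Over all genes the medians of these classes were 0.03, 0.08, -0.01 and 0.01, in the same order. Of the 8 members at least 2-fold higher 6 had an erythroblast peak (75%), and of the other 42 members 37 had one (88.1%), against 46.5% of all genes. Rps27l had an erythroblast peak alone, on chromosome 9 from 66793192 to 66795008, that covered its 5'-most listed exon with an enrichment of 11.6, and its nearest progenitor peak was 26.4 kb away. Rps24, with the lowest value, likewise had an erythroblast peak alone. These groups are small and were not tested.

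Promoter sequence was read from RefSeq for build GRCm38.p6, from 250 bases before to 50 after the annotated start of transcription, and 37 of 50 members matched. The EKLF-type motif CCNCNCCC was searched on both strands. It was found in 22 of 37 member promoters (59.5%), in 69.3% of the 4284 matched promoters of all genes in the table and in 49.1% of 27025 promoters in the RefSeq table. It can overlap the GC box GGGCGG, which was in 64.9% of member promoters and in 69.0% of those of all genes in the table. Members with the motif had a median log2 difference of -0.15 and the 15 without it 0.33, as a description. A match is a run of letters and was not tested for binding, and the peaks are on another build, so whether a stretch lies inside a peak was not tested.

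The stretches below run from 250 bases before to 20 after the annotated start, with each CCNCNCCC match or its reverse complement in capitals. They show the members with the highest and lowest difference among those with a promoter entry, a 1-exon member that was higher in erythroblasts, and members with high-ranked peaks in erythroblasts (Rpl36al) and in progenitors (Rps3a1). Rps27l is at chr9:66945836-66946105 on the forward strand, Rpl14 at chr9:120571267-120571536 on the forward strand, Rps24 at chr14:24490428-24490697 on the forward strand, Rpl36al at chr12:69184048-69184317 on the reverse strand and Rps3a1 at chr3:86142649-86142918 on the reverse strand, all in GRCm38.p6.
Rps27l: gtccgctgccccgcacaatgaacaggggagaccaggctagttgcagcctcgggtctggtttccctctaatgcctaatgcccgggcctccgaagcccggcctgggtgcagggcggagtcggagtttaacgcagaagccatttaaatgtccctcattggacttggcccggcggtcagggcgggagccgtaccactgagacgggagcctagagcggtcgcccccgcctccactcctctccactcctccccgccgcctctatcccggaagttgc
Rpl14: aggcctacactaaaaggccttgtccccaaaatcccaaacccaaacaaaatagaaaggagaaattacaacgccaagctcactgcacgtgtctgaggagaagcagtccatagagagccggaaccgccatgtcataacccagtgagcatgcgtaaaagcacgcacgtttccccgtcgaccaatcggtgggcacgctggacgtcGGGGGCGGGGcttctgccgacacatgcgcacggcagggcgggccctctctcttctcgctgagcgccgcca
Rps24: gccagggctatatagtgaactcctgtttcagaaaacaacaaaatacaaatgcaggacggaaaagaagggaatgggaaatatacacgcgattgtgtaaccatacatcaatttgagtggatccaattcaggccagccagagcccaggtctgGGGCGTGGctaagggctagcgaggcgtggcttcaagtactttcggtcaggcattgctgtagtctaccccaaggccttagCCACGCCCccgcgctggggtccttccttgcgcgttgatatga
Rpl36al: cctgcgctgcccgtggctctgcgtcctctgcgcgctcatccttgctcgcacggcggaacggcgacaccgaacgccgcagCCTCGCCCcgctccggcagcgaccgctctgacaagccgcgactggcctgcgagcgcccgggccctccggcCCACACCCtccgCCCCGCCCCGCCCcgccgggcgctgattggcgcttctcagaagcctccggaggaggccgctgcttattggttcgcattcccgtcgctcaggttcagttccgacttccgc
Rps3a1: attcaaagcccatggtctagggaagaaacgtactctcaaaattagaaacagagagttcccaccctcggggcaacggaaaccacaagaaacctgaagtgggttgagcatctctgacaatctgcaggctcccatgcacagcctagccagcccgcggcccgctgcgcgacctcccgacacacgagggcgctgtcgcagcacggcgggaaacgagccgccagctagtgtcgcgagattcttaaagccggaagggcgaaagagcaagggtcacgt
Rps27l and Rps3a1 hold no match in this stretch, although Rps3a1 has 1 further downstream in its promoter window and is counted among the 22 with the motif. Rpl14 and Rps24 hold 2 each, those of Rpl14 overlapping, and Rpl36al holds 4. Of stretches read but not shown, those of Rpl7a, Rpl34/Rpl34-ps1 and Rpl22 held no match, and that of Rpl7l1 held 1. The best erythroblast peak of Rpl7a ranked just above that of Rpl36al (2451 and 2462). A link between peak rank and number of matches was not tested.

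A run of C or T bases lay at or close to the annotated start of transcription in part of the family. A run of at least 5 C or T bases that touched the stretch from 5 bases before to 5 bases after the annotated start was found in 20 of 37 member promoters (54.1%), against 30.9% of promoters of all genes in the table. A run of at least 8 was found in 15 members (40.5%) and in 8.87% of all genes in the table. The lines below give 20 bases before and 20 after the annotated start in GRCm38.p6, with that run in capitals, for 4 members with long runs, of which Rps10 is also an anemia gene, and for the anemia genes Rps7 and Rps19. Annotated starts are not measured here and can miss the true start by some bases. A counted run can end before the annotated start, as in Rps7, or begin after it, as in Rpl13a. It is therefore not taken as a TOP tract.
Rpl7a (chr2:26910787-26910826, forward): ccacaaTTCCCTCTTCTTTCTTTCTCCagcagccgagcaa
Rpl14 (chr9:120571497-120571536, forward): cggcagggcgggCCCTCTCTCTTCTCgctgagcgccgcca
Rpl13a (chr7:45128726-45128765, reverse): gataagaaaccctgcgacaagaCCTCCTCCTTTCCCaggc
Rps10 (chr17:27635225-27635264, reverse): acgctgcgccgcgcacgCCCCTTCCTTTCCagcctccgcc
Rps7 (chr12:28635934-28635973, reverse): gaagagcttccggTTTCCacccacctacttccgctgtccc
Rps19 (chr7:24884572-24884611, forward): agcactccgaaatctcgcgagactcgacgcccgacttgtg
The run was 21 bases long in Rpl7a, 14 in Rpl14 and Rpl13a, 13 in Rps10 and 5 in Rps7. In Rps19 no run reached 5 at this annotated start. Rpl14 and Rps7 were past the 2-fold rule, while Rpl7a had 79.2 in erythroblasts and 76.1 in progenitors, so members with the run lay on both sides of the rule.

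Introns of ribosomal protein genes often hold small nucleolar RNAs (snoRNAs), which guide the modification of ribosomal RNA. In the GRCm38.p6 annotation 18 of 50 members (36.0%) enclosed at least 1 snoRNA, against 3.06% of all genes in the table. Rpl13a enclosed 4, namely Snord32a, Snord33, Snord34 and Snord35a, and Rps3 enclosed Snord15a and Snord15b. The hosts had a median log2 difference of 0.03 and the 32 other members 0.29. The coding-exon table gives no value for the snoRNAs themselves.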

How the data were processed

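RNA and EKLF ChIP were sequenced from sorted fetal liver cells, with RNA in paired reads of 51 bp and ChIP fragments of about 200 bp, per the labels' protocols. Build mm9 is named in the submitters' processing notes. Aligner, read counter and peak caller: not given in the sources used. The authors deposited a coverage signal per coding exon, in a table named as RPKM. Its values were whole multiples of 1 step per column (at least 99.97% within 0.05), with 2151 steps per unit in erythroblasts and 1835 in progenitors. Taking 1 step as 1 base, the floor of the table equals 33.7 reads of 51 bases in erythroblasts and 28.8 in progenitors, and the Rpl22l1 level equals 79.6 and 83.3. No source used says whether both erythroblast libraries were pooled, so each column is the authors' value and has neither SD nor n. The deposited peak lists give a fold enrichment and a −log10 p per peak, read from their values, in 1 pooled list per stage.

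Of 6853 RefSeq transcripts 6772 matched a symbol in the GRCm38.p6 table, whose coordinates are used for promoter sequence and for nested snoRNA names only. The transcript with the most listed exons was summed per gene, and genes with the same exon positions were joined. Peaks were ranked by −log10 p as deposited and then by enrichment. No test was possible with 1 column per stage, so a rule of at least 2-fold on log2((erythroblasts + 1) / (progenitors + 1)) replaced it. The steps were tested on simulated data. Members and lists were chosen with earlier results of these data known. Named genes were all members past the rule, the highest and lowest per subunit, the anemia genes, the paralogs and those with the highest-ranked peaks, and Rpl3, Rpl4, Rpl8, Rpl13a, Rps3, Rps14 and Myc were added after their values were seen. A few members are counted but not reported singly here. Of non-members, some past the rule and up to 2 others are named per list. Alternatives were other pseudocounts, scalings, gene summaries, filters, windows and peak thresholds. Python 3.11.15, pandas 2.3.3, numpy 2.4.6 and matplotlib 3.10.9 were used.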

Additional observations from a re-analysis of the deposited data

How the results depend on the processing

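Of 10 other settings for the RNA differences, none made a member at least 2-fold lower, against 7.91% to 15.6% of all genes. The median over members stayed between 0.01 and 0.09. The count of members at least 2-fold higher was 8 as reported, against 15.3% of all genes. With quantile normalization it was 5 of 50, against 14.1% of all genes. Among the 27 members with at least 2 listed exons it was 4 (14.8%), against 15.4% of all such genes. Those 27 kept their call by construction, since their values do not change. Over single members, 458 of 475 values were counted as the same, 7 moved by more than the spread of exons, 9 dropped under the rule and 1, Rps9, passed it. A member past the rule counted as the same if it kept its call. Any other did so if it stayed under the rule and moved by no more than its SD over exons, or the members' median SD if it had 1 exon. Settings that only change the filter on genes leave each value as it was, so their values are the same by construction. No called value changed sign. Quantile normalization took Rpl14 (0.998), Rplp1 (0.95) and Rpl37 (0.99) under the rule. For peaks, a window of 50 kb gave 45 members with an erythroblast peak (90%, against 88.1% of all genes), 40 with a progenitor peak (80%, against 70.1%) and 38 with both (76%, against 67.6%). Peaks with a −log10 p of at least 10 gave 30 with an erythroblast peak (60%, against 29.8%), 10 with a progenitor peak (20%, against 14.2%) and 7 with both (14%, against 11.7%). With 3679 peaks in each list, 6 members had an erythroblast peak (12%, against 14.3%) and 12 a progenitor peak (24%, against 18.5%). Peaks of both were at 3 (6%, against 9.03%). Fewer peaks are read in each list by construction, and the erythroblast list is cut more deeply. No paired analysis was possible because each stage has 1 column and no test. With 1 column and 1 list per stage, the spread between animals or libraries is unknown.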

Other observations

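Beside the EKLF-type motif, 2 further short motifs were counted on both strands of the same RefSeq promoters. The ETS-type motif CCGGAA was found in 17 of 37 member promoters (45.9%) and in 37.7% of promoters of all genes in the table. The GATA-type motif AGATAA was found in 1 of 37 (2.70%) and in 5.6%. The median GC content was 58.3% in member promoters and 61.7% in those of all genes in the table.

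Within the 27 members with at least 2 listed exons, the 5' exon had a higher log2 ratio than the 3' exon in 15 and a lower one in 12. Rplp0 and Rpl13a ran in opposite directions along the gene, as described above. These values are given without a test, since exons of 1 gene share their libraries.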
